A study of Macaca fascicularis with 16 samples.

Results

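The genes described here build the route by which newly made secreted and membrane proteins enter the endoplasmic reticulum (ER) and leave it for the Golgi. They were picked by a rule on symbols that uses no measured value, though with earlier results of these data known: SEC11, SEC13, SEC16, SEC22, SEC23, SEC24, SEC31 and SEC61 to SEC63 genes, SSR, SRP and SPCS genes, protein disulfide isomerases (PDIA3 to PDIA6, P4HB), TMED, COP and ALG genes, and XBP1, ATF6 and ERN1. The rule found 55 of the 14132 genes named on the array, in 107 probe sets. A probe set, the array's group of probes for 1 transcript, was tested when its signal exceeded the median of the whole table on at least 4 arrays, and 52 of the 55 genes (94 probe sets) passed. The 3 genes not tested, each with 1 probe set, were the stress sensor ERN1 (mean signal 7.89 over all arrays), the signal peptidase subunit SPCS2 (34.5) and TMED8 (35.5). The samples were mammary tissue of ovariectomized, post-menopausal female cynomolgus macaques, hybridized to an array designed for rhesus macaque, with 1 array per animal and 4 animals per group. The groups received tibolone (0.2 mg/kg), a synthetic steroid with estrogenic, progestogenic and androgenic activity; conjugated equine estrogens with the progestin medroxyprogesterone acetate (CEE+MPA, 0.042 and 0.167 mg/kg); conjugated equine estrogens alone (CEE, 0.042 mg/kg); or no treatment (control). All animals, the controls included, lacked ovaries, and the labels give neither age nor length of treatment.

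Proteins bound for secretion carry a signal peptide that the signal recognition particle binds as it leaves the ribosome. The particle docks at its receptor on the ER, and the chain is threaded through the SEC61 channel with help from the SSR subunits of the translocon-associated protein complex, after which signal peptidase removes the signal peptide. ALG enzymes assemble the sugar that is attached to the chain, protein disulfide isomerases form its disulfide bonds, COPII coats and p24 (TMED) cargo receptors carry it forward, and COPI coats bring vesicles back. Unfolded protein in the ER activates ERN1 and ATF6, and ERN1 splices the XBP1 transcript so that it encodes an activator of secretory pathway genes. Mammary epithelium relies on this machinery for milk proteins, and plasma cells for antibodies.

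Array signals were scaled intensities, tested as log2(signal + 16), so fold changes are understated at low signal. Bacterial spike-in RNAs, dap and thr, separated 6 arrays of low signal (CEE+MPA replicates 1 and 4, CEE 1 and 2, control 3 and 4) from 10 of high signal, which held all 4 tibolone arrays. Among those 10 the tibolone arrays had the lowest mean log2 spike-in signal, 7.12 to 7.27, with the others at 7.43 to 7.85. Sums of 14 tested luminal epithelial markers spanned 29000 to 51400 with tibolone, 40400 to 48200 with CEE+MPA, 39900 to 44700 with CEE and 35100 to 38800 in controls, and none of the tested markers was at 0 on any array. KRT19, by far the brightest of them, averaged 16300, 22000, 18200 and 14200 in that order of groups and weighs most in these sums. The markers were divided in log2 fold change: 8 rose and 6 fell in CEE+MPA against control, and 9 rose and 5 fell in CEE against control. Sums of 11 skeletal muscle markers spanned 829 to 11600, 611 to 4780, 489 to 761 and 831 to 15300 in the same order of groups, with high values on tibolone replicates 2 and 3, CEE+MPA replicate 1 and control replicate 1. Sums of 7 B and plasma cell markers spanned 7150 to 16000 with tibolone, 8640 to 16700 with CEE+MPA, 8030 to 12700 with CEE and 7450 to 14000 in controls. JCHAIN, the brightest, averaged 8350, 10500, 7800 and 8270 in that order and made up most of these sums. In log2 fold change 5 of the 7 were below 0 and 2 above in CEE+MPA against control, and all 7 were below 0 in CEE against control. In whole tissue, fewer cells of a type and less RNA per cell cannot be told apart.

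The spread between animals of 1 group varied among the 52 genes. Their median within-group SD on the log2 scale was 0.22, against 0.27 over all 10452 tested genes, and 0.22 against 0.26 where the mean signal exceeded 100. The steadiest was SEC31A, an outer shell subunit of the COPII coat, with an SD of 0.08 and signals between 3060 and 3730 on all 16 arrays. ALG12 and ALG2, mannosyltransferases of the N-glycan precursor, had SDs of 0.12 and 0.13. The widest were SEC16B, which organizes ER exit sites (0.60), SEC11C, a catalytic signal peptidase subunit (0.49), TMED6 (0.45), COPG2 (0.43) and TMED3 (0.36). SEC11C reached 2290 on tibolone replicate 4 and 2130 on CEE+MPA replicate 1, while the other 14 arrays lay at 563 to 1290.

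**Figure D1:**
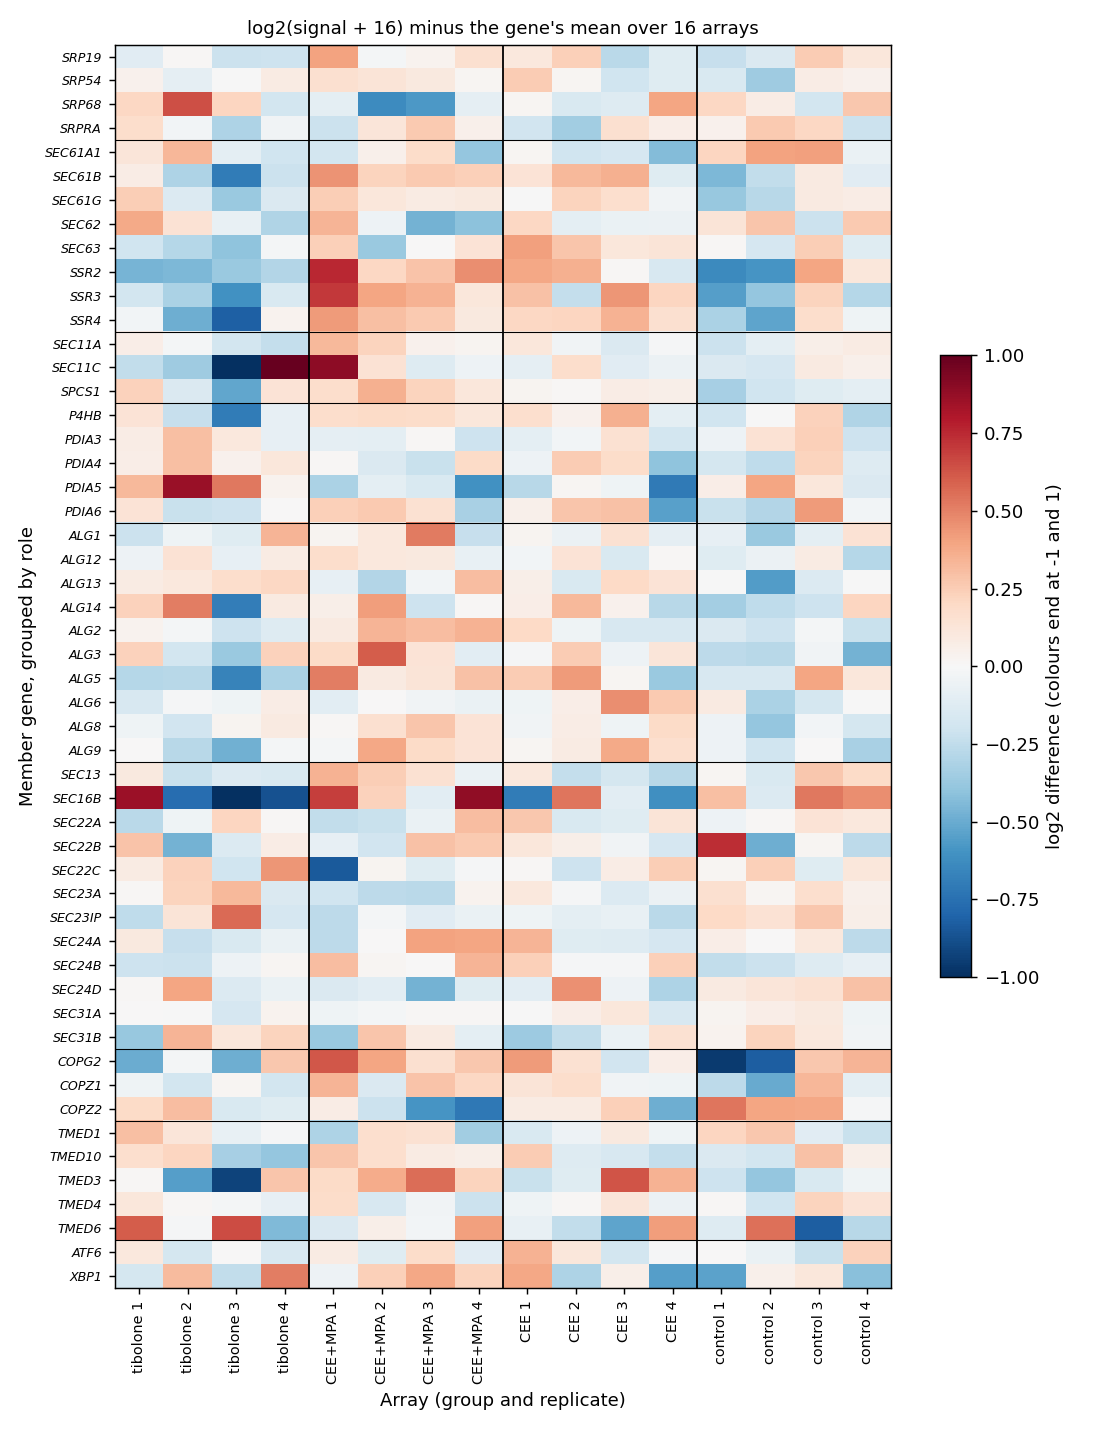
Each row is 1 of the 52 tested genes and each column 1 of the 16 arrays; colour gives log2(signal + 16) minus the gene's mean over all arrays, and vertical lines part the groups, tibolone, CEE+MPA, CEE and control from left to right. The translocon rows SSR2, SSR3, SSR4 and SEC61B lie above their mean on all CEE+MPA arrays, the last 3 of them are lowest on tibolone replicate 3, and SEC31A stays near white.

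Tibolone and CEE+MPA differed in 4 secretory pathway genes. SSR2 and SSR3, subunits of the translocon-associated protein complex, and ALG5, which makes the dolichol-linked glucose donor for N-glycan assembly, fell with tibolone relative to CEE+MPA, and PDIA5, a protein disulfide isomerase, rose. The 4 called genes (3 lower, 1 higher, limma with adjustment over 28704 probe sets) were 7.69% of the 52, beside 7.35% of all tested genes (3.98% higher, 3.37% lower), so the share called was near that of the array as a whole. At unadjusted p under 0.05, 14 of the 52 passed (11 lower, 3 higher), against 28.0% of all genes. Counted by probe set, 6 of 94 passed (6.38%, against 6.34% of all tested probe sets). Groups did not overlap for 7 of the 52 genes (13.5%, against 14.8% of all genes). The median log2 fold change was -0.13 over the 52 genes, with 34 below 0 and 18 above, and 0.01 over all genes. Medians and directions here and below use 1 probe set per gene. Of the 26 genes with several tested probe sets, only 14 had all of them in the same direction here. Over the 6 comparisons this number was 12 to 16 of the 26. Leaving out 1 array at a time gave 0 called genes (without CEE+MPA replicate 1, 2 or 3 or tibolone replicate 2 or 3) to 8 (without tibolone replicate 4). Of all tested genes 0.794% to 3.43% were called in the fits with 0, and 13.6% in the fit with 8. Of the 52, 0 passed with quantile normalization (5.17% of all genes), with no filter on low signal (2.28%) or with only the 2 groups compared in the fit (0.832%). The count was also 0 with the 2 spike-in sets blocked (2.85% of all genes), with a skeletal muscle covariate (2.99%), or without the 4 arrays of high skeletal muscle signal (0%). With the muscle covariate the 4 log2 fold changes stayed about as large (SSR2 -0.80, SSR3 -0.67, ALG5 -0.63, PDIA5 0.69, adjusted p = 0.0674 to 0.0805), and without the 4 arrays they were smaller (-0.70, -0.45, -0.47 and 0.47, adjusted p = 0.439 to 0.569).

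In the other 5 comparisons limma called none of the 52 genes. For CEE+MPA against control this compares with 7.69% of all tested genes, and 16 of the 52 passed at unadjusted p under 0.05 (12 higher, 4 lower), against 28.3% of all genes. The count of 0 there became up to 5 under the other settings tried, with array weights, where 15.6% of all tested genes were called. It became up to 2 with 1 array left out (without control replicate 3, CEE+MPA replicate 1 or tibolone replicate 3), beside 4.29% to 9.71% of all genes. The groups did not overlap for 8 of them (15.4%, against 19.5% of all genes): ALG2, ALG8, SEC24B, SEC61B, SPCS1 and TMED3 were higher on every CEE+MPA array than on any control array, and SEC23IP and SEC24D lower. The median log2 fold change was 0.15 over the 52, with 36 above 0 and 16 below, and 0.01 over all genes. For CEE against control 0.0574% of all genes were called, and 6 of the 52 (5 higher, 1 lower) passed unadjusted, against 14.2% of all genes. Groups did not overlap for ALG9, SEC24B and SPCS1, all higher with CEE, and SEC23IP, lower (7.69%, against 10.5%).

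For tibolone against control 0.00957% of all genes were called, and 1 of the 52, ALG5, passed unadjusted, against 4.83% of all genes. ALG13, the soluble partner of ALG14 in a glycosyltransferase, was higher and ALG5 lower without overlap (3.85%, against 3.11%). For CEE+MPA against CEE 0.0287% were called, 2 of the 52 passed unadjusted (ALG2 and SEC13, both higher), against 7.58%, and the groups of 1 gene, SPCS1, did not overlap (1.92%, against 5.61%). For tibolone against CEE 0% were called, 8 of the 52 passed unadjusted (7 lower, 1 higher), against 13.0%, and groups did not overlap for 5 (9.62%, against 5.88%): PDIA5 was higher, and SSR2, SSR4, SEC63 and ALG9 were lower. Median log2 fold changes over the 52 were 0.06 for CEE against control, -0.04 for tibolone against control, 0.08 for CEE+MPA against CEE and -0.05 for tibolone against CEE, with 0.00 to 0.01 over all genes.

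For most of the 52 genes the fold change was bounded within 2-fold. The 95% interval of the fold change lay inside 2-fold in either direction for 51 genes in tibolone against control, CEE+MPA against CEE and CEE against control, where SEC16B was the exception. It did so for 49 in tibolone against CEE, for 47 in CEE+MPA against control and for 44 in tibolone against CEE+MPA. As shares, 84.6% to 98.1% of the 52 were bounded in this way, against 75.7% to 88.3% of all tested genes. The called differences were themselves smaller than 2-fold, so this bound does not exclude differences of their size.

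**Figure D2:**
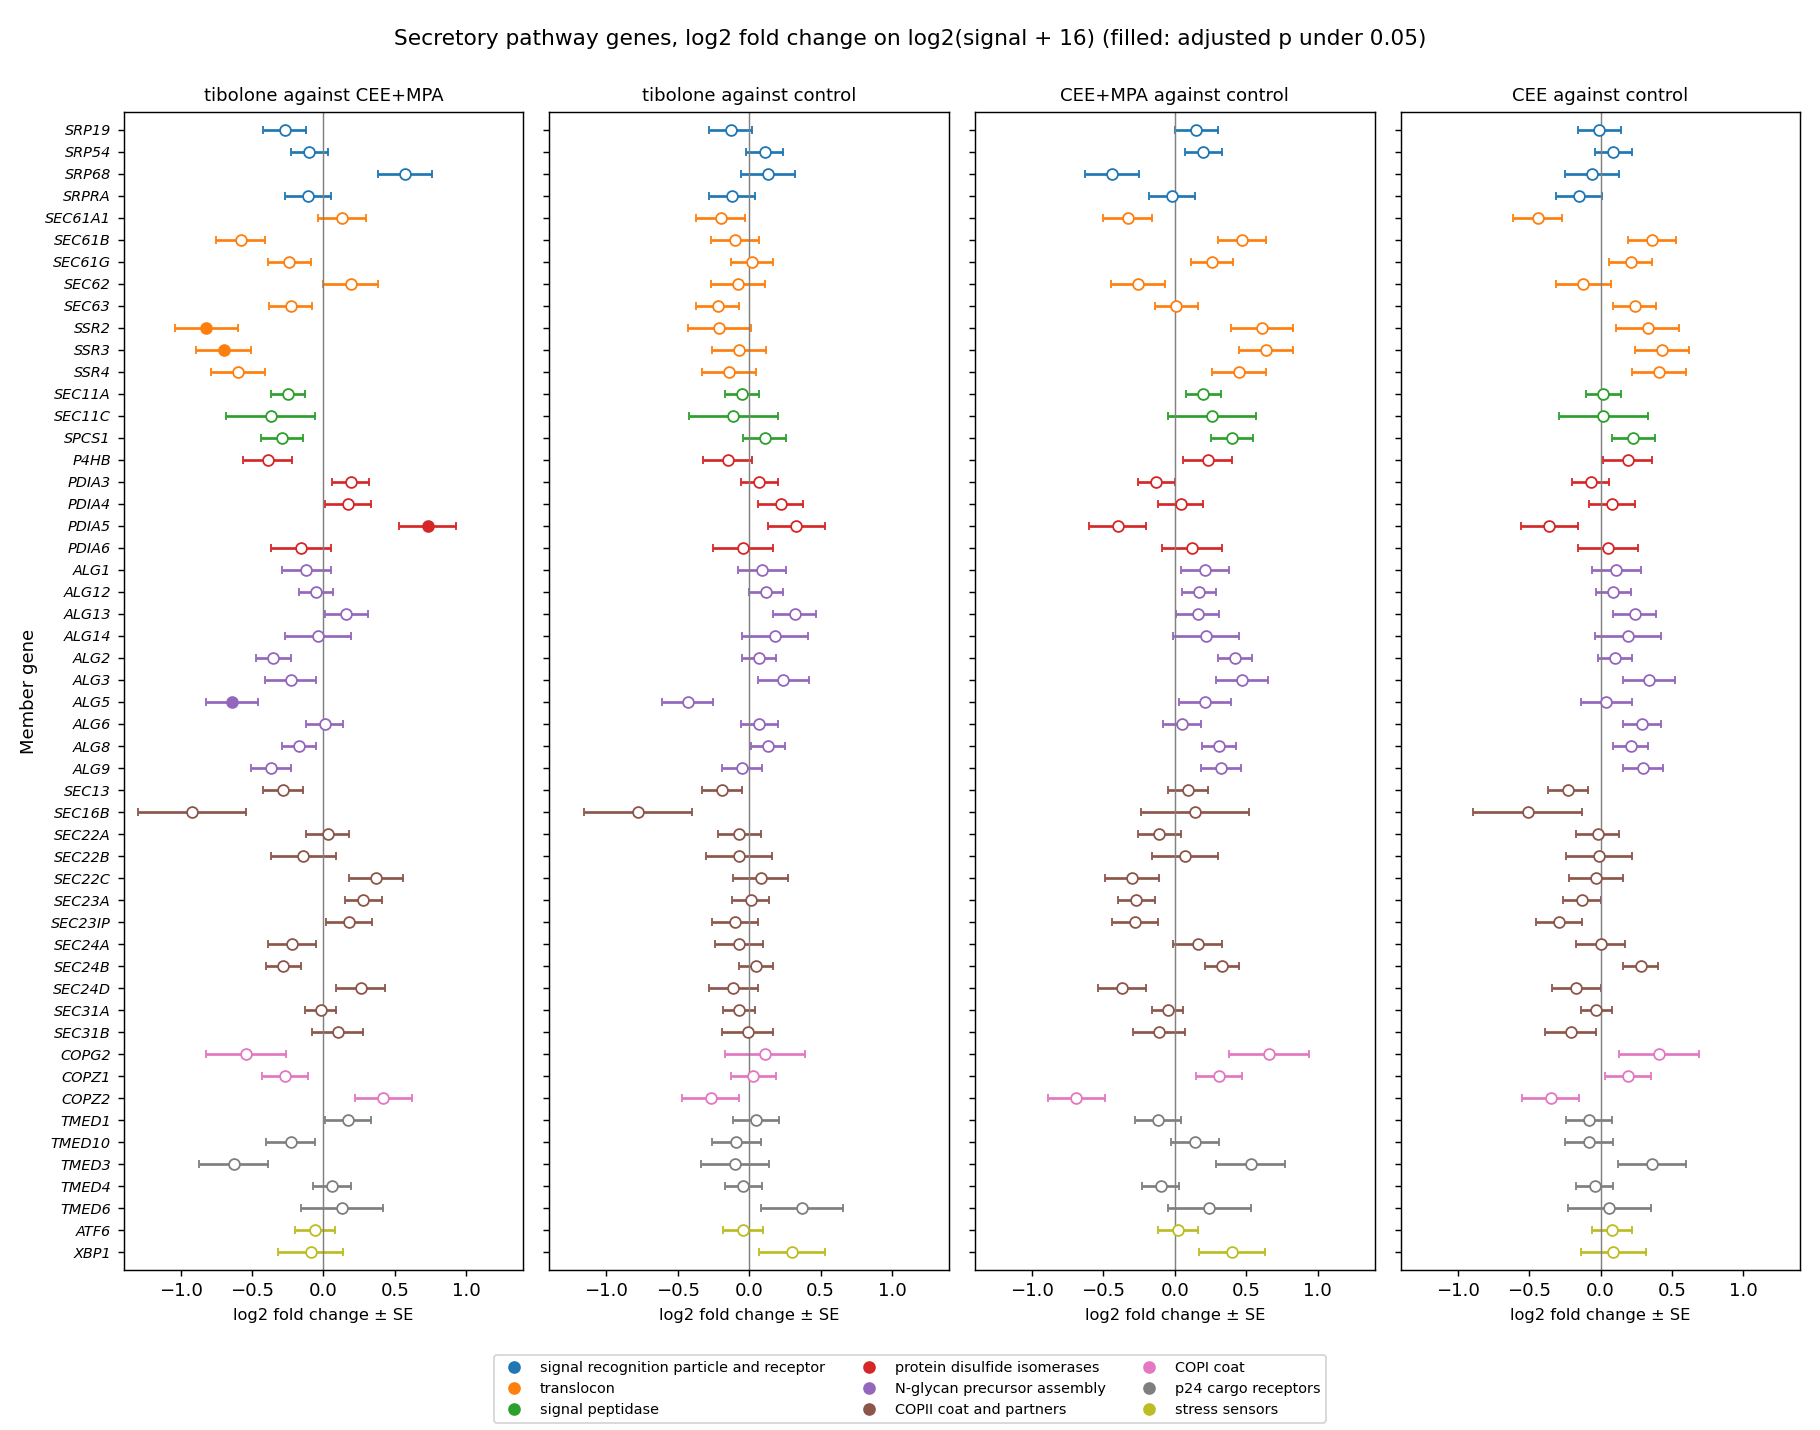
Log2 fold changes of the 52 tested genes on the log2(signal + 16) scale, with standard errors from limma, in 4 of the comparisons; colours give the role and filled points an adjusted p under 0.05. The filled points are SSR2, SSR3 and ALG5, lower with tibolone than with CEE+MPA, and PDIA5, higher.

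The signal recognition particle and its receptor were represented by 4 genes, and none was called in any comparison. SRP68, part of the particle's protein core, had 3830, 5200, 3840 and 2910 with tibolone and 3100, 2140, 2220 and 3110 with CEE+MPA. The groups overlapped, since tibolone replicate 4 lay below CEE+MPA replicates 1 and 4, and the log2 fold change was 0.57 ± 0.19 (adjusted p = 0.0869). CEE arrays had 3360, 2980, 3020 and 4360 and controls 3830, 3480, 2920 and 4000, and CEE+MPA against control gave -0.44 ± 0.19 (adjusted p = 0.179). The other SRP68 probe sets did not show this size, at -0.10 and 0.29 for tibolone against CEE+MPA. SRP54, the subunit that binds the signal peptide, averaged 530 ± 27.1 with tibolone, 567 ± 23.3 with CEE+MPA, 526 ± 76.0 with CEE and 494 ± 68.5 in controls (SD, n = 4 each), and its largest log2 fold change among the 6 comparisons was 0.20 ± 0.13, for CEE+MPA against control. SRP19, which binds the particle's RNA, and SRPRA, the receptor's alpha subunit, differed by at most 0.27 in size, for SRP19 between tibolone and CEE+MPA (-0.27 ± 0.15).

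In tibolone against CEE+MPA the translocon genes had the median of greatest size among the roles. SSR2, the beta subunit of the translocon-associated protein complex, had 3440, 3470, 3660 and 3870 with tibolone and 8000, 5480, 5800 and 6560 with CEE+MPA. CEE arrays had 6200, 6080, 4790 and 4240, and control arrays 3040, 3150, 6250 and 5130. All tibolone arrays lay below all CEE+MPA and all CEE arrays, while the controls spread over most of the range. The mean was 3610 ± 197 with tibolone and 6460 ± 1120 with CEE+MPA (SD, n = 4 each), a ratio of 0.559 (log2 fold change -0.82 ± 0.22, adjusted p = 0.0382). SSR2 was measured by 3 tested probe sets, and all 3 passed, the other two with -0.87 ± 0.21 (adjusted p = 0.0274) and -0.63 ± 0.15 (adjusted p = 0.0273).

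SSR2 also differed between the spike-in sets. In CEE+MPA, CEE and control, both arrays of the low set lay above both of the high set, and with the group in the model the high set was lower by -0.56 ± 0.11 (adjusted p = 0.0147). The log2 ratio of 3′ to 5′ GAPDH control signal, a measure of RNA integrity, spanned 0.105 to 0.873 on arrays of the high set and 0.00241 to 0.247 on those of the low set, and its part in this difference was not tested. No other of the 52 genes was called between the sets (1.92%, against 2.60% of all tested genes). All tibolone arrays belonged to the high set, as did CEE+MPA replicates 2 and 3. The mean log2 spike-in signal was 7.12 to 7.27 on the tibolone arrays and 7.82 and 7.85 on those 2 arrays, the highest of all. Fits within the high set or with the sets blocked, here and for the genes below, do not take out this difference. Within the high set tibolone against CEE+MPA gave -0.64 (adjusted p = 0.0420), and with the sets blocked -0.54 (adjusted p = 0.0526). With the GAPDH ratio as a covariate it gave -0.73 (adjusted p = 0.0237).

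SSR3, the gamma subunit, had 3910, 3550, 2910 and 3980 with tibolone and 7230, 5820, 5640 and 4790 with CEE+MPA. CEE arrays had 5420, 3760, 6030 and 5140, and controls 3020, 3380, 5180 and 3630. Tibolone and CEE+MPA did not overlap, and tibolone overlapped the controls. The means of 3590 ± 491 with tibolone and 5870 ± 1010 with CEE+MPA gave a log2 fold change of -0.70 ± 0.19 (adjusted p = 0.0428), and within the high set -0.68 (adjusted p = 0.111). SSR3 was close to level between the spike-in sets (-0.06 ± 0.16, adjusted p = 0.901). For CEE+MPA against control SSR3 gave 0.64 ± 0.19 (adjusted p = 0.0580) and SSR2 0.61 ± 0.22 (adjusted p = 0.0982). For CEE against control the values were 0.43 ± 0.19 (adjusted p = 0.381) and 0.33 ± 0.22 (adjusted p = 0.559), and for tibolone against control -0.07 ± 0.19 (adjusted p = 0.980) and -0.21 ± 0.22 (adjusted p = 0.927).

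SSR4, the delta subunit, had 5460, 3950, 3140 and 5700 with tibolone and 7480, 6850, 6650 and 5940 with CEE+MPA. CEE arrays had 6410, 6440, 7060 and 6220, and controls 4450, 3840, 6260 and 5380. No tibolone array reached any CEE+MPA or CEE array, yet the log2 fold changes of -0.60 ± 0.19 (adjusted p = 0.0692) and -0.56 ± 0.19 (adjusted p = 0.290) did not pass. SEC61B, the beta subunit of the channel, had 4280, 3290, 2500 and 3510 with tibolone, 5560, 4740, 4870 and 4810 with CEE+MPA, 4470, 5110, 5220 and 3740 with CEE and 2970, 3430, 4320 and 3750 in controls. Every CEE+MPA array exceeded every tibolone and control array, with -0.58 ± 0.17 for tibolone against CEE+MPA (adjusted p = 0.0535) and 0.47 ± 0.17 for CEE+MPA against control (adjusted p = 0.101).

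The channel's other subunits did not follow SEC61B in size. SEC61G, the gamma subunit, averaged 2790 ± 513 with tibolone, 3250 ± 175 with CEE+MPA, 3150 ± 279 with CEE and 2740 ± 457 in controls, and gave -0.24 ± 0.15 for tibolone against CEE+MPA (adjusted p = 0.335). SEC61A1, which forms the pore, averaged below the controls in all treated groups, with 1020 ± 173 with tibolone, 936 ± 165 with CEE+MPA, 861 ± 112 with CEE and 1170 ± 175 in controls. Its log2 fold change for CEE against control was -0.44 ± 0.17 (adjusted p = 0.311), the smallest p among the genes that were lower there. SEC62 and SEC63, which help proteins enter after translation, gave 0.19 ± 0.19 and -0.23 ± 0.15 for tibolone against CEE+MPA (adjusted p = 0.578 and 0.356). SEC63 against CEE gave -0.46 ± 0.15 (adjusted p = 0.284), with tibolone arrays at 687 to 905 and CEE arrays at 993 to 1220.

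Over the 8 tested translocon genes the median log2 fold change was -0.41 for tibolone against CEE+MPA (2 lower, 0 higher by the test), -0.12 for tibolone against control, 0.36 for CEE+MPA against control, 0.08 for CEE+MPA against CEE, -0.46 for tibolone against CEE and 0.29 for CEE against control. The medians over all genes lay at 0.00 to 0.01. The comparisons share arrays, so these medians are not independent of each other. SSR1 was not analysed here, nor were SEC23B, COPA and TMED2 of the later steps.

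**Figure D3:**
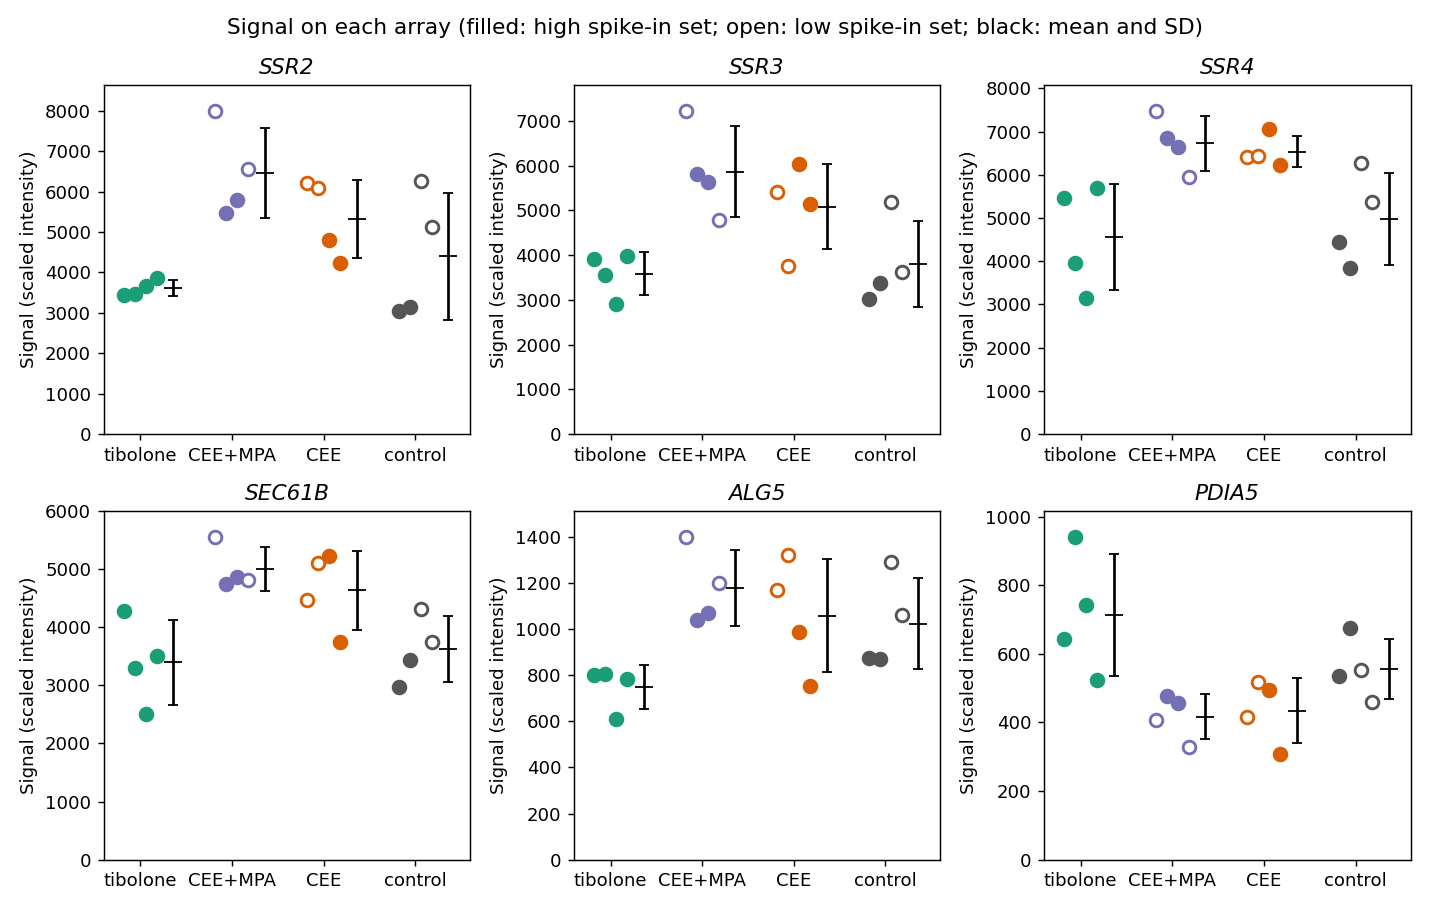
Signal on each array (linear scale from 0) for 4 translocon genes, ALG5 and PDIA5, with groups from left to right tibolone, CEE+MPA, CEE and control; filled points are arrays of the high and open points of the low spike-in set, and black marks give the mean and SD. SSR2 arrays with tibolone sit between 3440 and 3870, below all CEE+MPA arrays, and the open points of SSR2 lie above the filled ones in the 3 other groups.

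Signal peptidase was measured by 3 genes and none was called. SPCS1, a small subunit of the complex, had 7750, 5980, 4600 and 7250 with tibolone, 7460, 8460, 7710 and 7160 with CEE+MPA, 6750, 6670, 6970 and 6900 with CEE and 5240, 5750, 6090 and 6180 in controls. All CEE+MPA and all CEE arrays lay above all controls, and the tibolone arrays covered nearly the whole range. The log2 fold changes were 0.40 ± 0.15 for CEE+MPA against control (adjusted p = 0.105) and 0.23 ± 0.15 for CEE against control (adjusted p = 0.539). SEC11A, a catalytic subunit, averaged 2800 ± 278 with tibolone, 3330 ± 337 with CEE+MPA, 2940 ± 215 with CEE and 2900 ± 281 in controls, within -0.25 to 0.20 on the log2 scale in the 6 comparisons. SEC11C averaged 1170 ± 762, 1380 ± 505, 1130 ± 112 and 1110 ± 103 in that order of groups, and its spread left a standard error of 0.31 on every difference.

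Among the 5 protein disulfide isomerases only PDIA5 was called, in tibolone against CEE+MPA. It had 643, 942, 742 and 523 with tibolone and 407, 476, 457 and 329 with CEE+MPA. CEE arrays had 417, 517, 494 and 307, and controls 535, 674, 554 and 460. Tibolone arrays all exceeded those of CEE+MPA and CEE and overlapped the controls. The means of 712 ± 177 with tibolone and 417 ± 65.7 with CEE+MPA (SD, n = 4 each) stood in a ratio of 1.71 (log2 fold change 0.73 ± 0.20, adjusted p = 0.0428). Tibolone against CEE was of like size, 0.69 ± 0.20, without passing (adjusted p = 0.258), and against control the values were 0.33 ± 0.20 with tibolone (adjusted p = 0.913), -0.40 ± 0.20 with CEE+MPA (adjusted p = 0.235) and -0.36 ± 0.20 with CEE (adjusted p = 0.482). Within the high spike-in set PDIA5 gave 0.56 for tibolone against CEE+MPA (adjusted p = 0.200). Its highest arrays, tibolone replicates 2 and 3, are also those of high skeletal muscle signal in that group, and without the 4 arrays of high muscle signal PDIA5 gave 0.47 (adjusted p = 0.569).

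The other isomerases stayed closer together. P4HB, also a subunit of collagen prolyl 4-hydroxylase, had 6520, 5050, 3640 and 5610 with tibolone against 6700, 6790, 6740 and 6410 with CEE+MPA, a log2 fold change of -0.39 ± 0.17 (adjusted p = 0.174), and averaged 6490 ± 873 with CEE and 5720 ± 943 in controls. The low P4HB value of tibolone replicate 3 was shared by other genes. Among them the called genes SSR3 (2910) and ALG5 (609), and SSR4, SEC61B, SPCS1 and TMED3, were each at their lowest of all 16 arrays there. The called gene SSR2 (3660) was not. Relative to each gene's mean over the arrays, the luminal markers averaged -0.464 and the tested pathway genes -0.205 on the log2 scale there. Both were the lowest of the 16 arrays. PDIA3, which works on glycoproteins, differed by 0.19 ± 0.13 between tibolone and CEE+MPA (adjusted p = 0.370), PDIA4 by 0.17 ± 0.16 (adjusted p = 0.535) and PDIA6 by -0.16 ± 0.21 (adjusted p = 0.668). Against control PDIA4 gave 0.22 ± 0.16 with tibolone, 0.04 ± 0.16 with CEE+MPA and 0.08 ± 0.16 with CEE.

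The N-glycan precursor is assembled by ALG enzymes, of which 10 were tested. ALG5 had 798, 805, 609 and 781 with tibolone and 1400, 1040, 1070 and 1200 with CEE+MPA. CEE arrays had 1170, 1320, 988 and 752, and controls 872, 870, 1290 and 1060. All tibolone arrays lay below all CEE+MPA and control arrays, and the CEE arrays overlapped both. The means of 748 ± 93.5 with tibolone and 1180 ± 162 with CEE+MPA gave a log2 fold change of -0.64 ± 0.18 (adjusted p = 0.0479), and tibolone against control gave -0.43 ± 0.18 (adjusted p = 0.908). ALG5 was -0.41 ± 0.11 lower in the high than in the low spike-in set (adjusted p = 0.0605), and within the high set tibolone against CEE+MPA gave -0.50 (adjusted p = 0.119).

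ALG2, a mannosyltransferase of the early steps, had 1130, 1090, 957 and 1010 with tibolone and 1180, 1400, 1370 and 1410 with CEE+MPA. CEE arrays had 1270, 1070, 986 and 986, and controls 1000, 957, 1090 and 943. CEE+MPA arrays exceeded all tibolone and control arrays and overlapped CEE through replicate 1. The log2 fold change was 0.42 ± 0.12 for CEE+MPA against control (adjusted p = 0.0511), 0.31 ± 0.12 against CEE (adjusted p = 0.539) and -0.35 ± 0.12 for tibolone against CEE+MPA (adjusted p = 0.0883).

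All 10 ALG genes had a log2 fold change above 0 in CEE+MPA against control (0.05 to 0.47, median 0.21) and in CEE against control (0.04 to 0.34, median 0.20), and none passed the test in either. Both comparisons use the same control arrays. In tibolone against control 8 of 10 were above 0 (median 0.10), with ALG5 and ALG9 below. The largest value was that of ALG3, another mannosyltransferase, which averaged 944 ± 197 with tibolone, 1110 ± 243 with CEE+MPA, 1000 ± 97.9 with CEE and 791 ± 102 in controls and gave 0.47 ± 0.18 for CEE+MPA against control (adjusted p = 0.116). ALG6, which adds glucose to the precursor, was highest with CEE, at 550 ± 90.1 against 445 ± 56.7 in controls (0.29 ± 0.13, adjusted p = 0.385). ALG1 averaged 212 ± 40.9 with tibolone, 233 ± 55.4 with CEE+MPA, 213 ± 17.3 with CEE and 198 ± 30.5 in controls. ALG13 gave 0.32 ± 0.15 for tibolone against control (adjusted p = 0.913).

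COPII coat genes and their partners, 12 in all, had medians between -0.08 and 0.03 on the log2 scale in the 6 comparisons, and none was called. SEC24B, a cargo-binding coat subunit, had 911, 907, 1020 and 1070 with tibolone, 1310, 1070, 1060 and 1340 with CEE+MPA, 1250, 1050, 1050 and 1250 with CEE and 888, 910, 964 and 1000 in controls. All CEE+MPA and CEE arrays exceeded all controls, with 0.33 ± 0.12 for CEE+MPA (adjusted p = 0.114) and 0.28 ± 0.12 for CEE (adjusted p = 0.374). Its paralog SEC24D, which also binds cargo, lay on the other side: it had 474, 624, 426 and 449 with tibolone, 424, 436, 335 and 431 with CEE+MPA, 435, 650, 453 and 377 with CEE and 501, 512, 524 and 579 in controls. SEC24D gave -0.37 ± 0.17 for CEE+MPA against control without overlap (adjusted p = 0.183).

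SEC23A, the coat's GTPase-activating subunit, averaged 459 ± 68.6 with tibolone and 374 ± 39.9 with CEE+MPA (0.28 ± 0.13, adjusted p = 0.181), and 415 ± 31.1 with CEE and 454 ± 24.2 in controls. SEC23IP, which binds SEC23, had 111, 106, 108 and 92.4 with CEE against 134, 128, 141 and 120 in controls (-0.29 ± 0.16, adjusted p = 0.472). SEC16B had 288, 82.7, 57.4 and 75.6 with tibolone against 255, 181, 140 and 294 with CEE+MPA, so that tibolone replicate 1 stood apart from its group. Its log2 fold change of -0.92 ± 0.38 had the greatest size of the 52 genes in that comparison and did not pass (adjusted p = 0.150). SEC13, a shell subunit also found in the nuclear pore, averaged 1480 ± 182 with CEE+MPA and 1180 ± 149 with CEE (0.32 ± 0.14, adjusted p = 0.606).

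The COPI coat was covered by COPZ1, COPZ2 and COPG2. COPZ2, an alternative zeta subunit, had 854, 925, 670 and 685 with tibolone, 785, 639, 491 and 447 with CEE+MPA, 790, 792, 881 and 527 with CEE and 1090, 984, 978 and 739 in controls. CEE+MPA overlapped the controls only through its replicate 1 and control replicate 4, and the log2 fold change was -0.69 ± 0.20 (adjusted p = 0.0538). CEE against control gave -0.35 ± 0.20 (adjusted p = 0.503) and tibolone against control -0.27 ± 0.20 (adjusted p = 0.913). COPZ1, the widely expressed zeta subunit, gave 0.31 ± 0.16 for CEE+MPA against control (adjusted p = 0.274). COPG2 was faint, with 16.1 and 19.2 on control replicates 1 and 2 and 59.2 and 63.1 on replicates 3 and 4, which are the high and the low spike-in set, and 53.6 to 80.2 with CEE+MPA (0.66 ± 0.28, adjusted p = 0.164).

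Of the 5 tested p24 cargo receptors none was called. TMED3 had 7860, 5320, 4110 and 9480 with tibolone and 8920, 10100, 11500 and 9100 with CEE+MPA. CEE arrays had 6670, 7160, 12100 and 9940, and controls 6750, 5980, 7020 and 7580. CEE+MPA exceeded all controls (0.53 ± 0.24, adjusted p = 0.186), and tibolone replicate 4 reached into the CEE+MPA range (-0.63 ± 0.24, adjusted p = 0.116). TMED10, which also carries cargo back to the ER, averaged 2870 ± 631 with tibolone, 3310 ± 237 with CEE+MPA, 2870 ± 471 with CEE and 3030 ± 471 in controls, with -0.23 ± 0.17 for tibolone against CEE+MPA (adjusted p = 0.410). TMED1 and TMED4 lay within -0.12 to 0.17 in the 6 comparisons, and TMED6 was faint at 18.8 to 80.6.

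The stress sensor ATF6 and XBP1, whose transcript the sensor ERN1 splices, gave no called difference, and ERN1 itself was not tested. XBP1 had 7500, 10600, 7170 and 12100 with tibolone, 8180, 10000, 11100 and 9930 with CEE+MPA, 11100, 6860, 8850 and 5800 with CEE and 5850, 8810, 9180 and 6350 in controls. All groups overlapped. Against control the log2 fold change was 0.30 with tibolone (95% interval -0.18 to 0.78), 0.40 with CEE+MPA (-0.08 to 0.87, adjusted p = 0.304) and 0.09 with CEE (-0.39 to 0.57). ATF6, a membrane-bound factor released by cleavage in the Golgi, averaged 336 ± 33.0 with tibolone, 352 ± 38.8 with CEE+MPA, 369 ± 60.3 with CEE and 348 ± 48.1 in controls, with -0.04 ± 0.14, 0.02 ± 0.14 and 0.08 ± 0.14 against control. Splicing of XBP1 and cleavage of ATF6 were not analysed here.

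**Figure D4:**
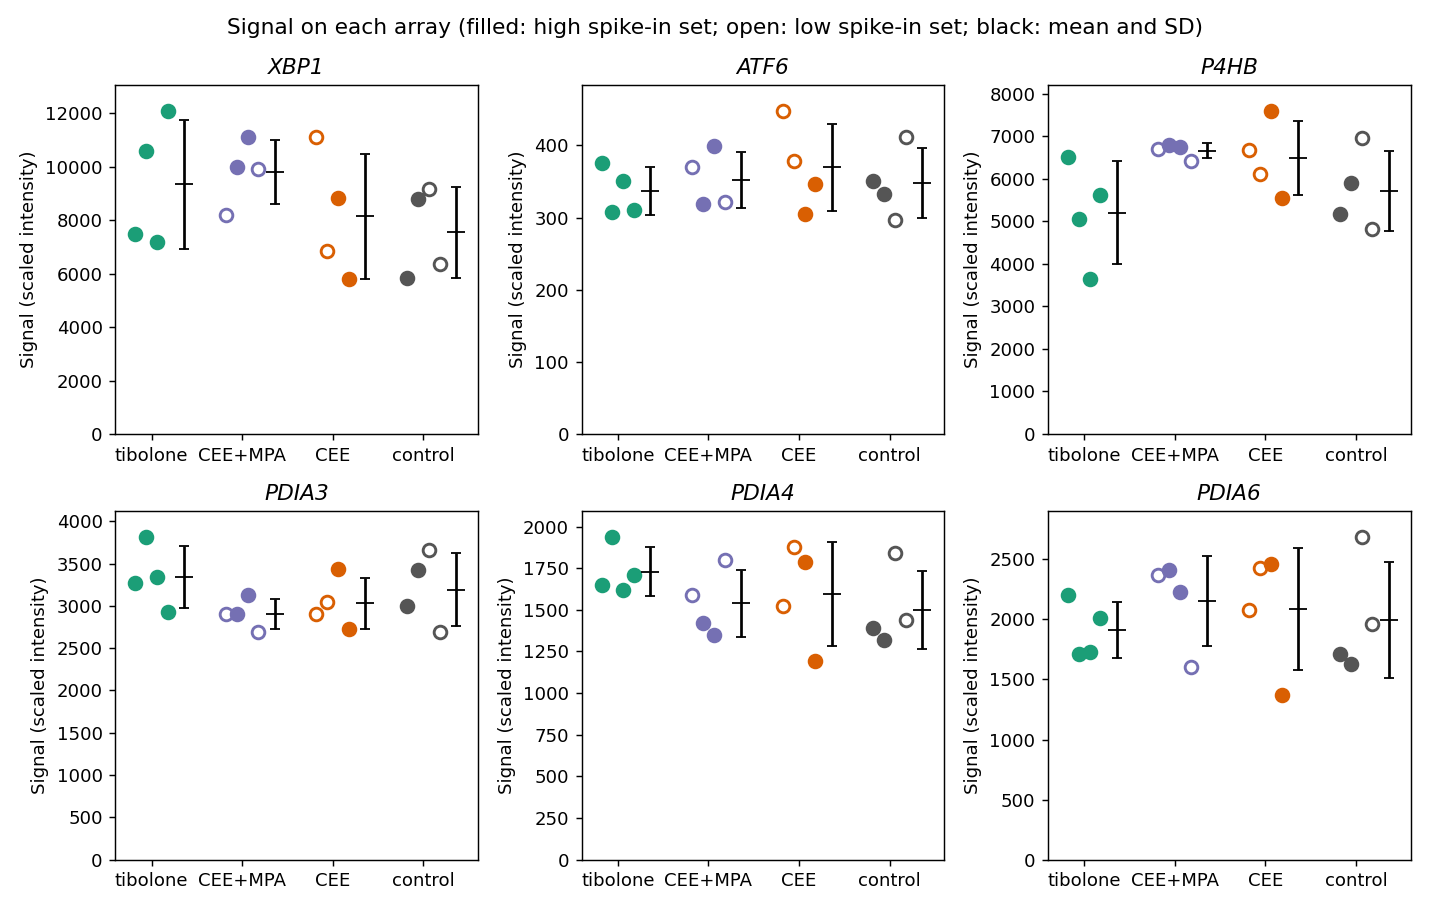
Signal on each array (linear scale from 0) for XBP1, the stress sensor ATF6 and 4 protein disulfide isomerases, with groups, filled and open points and black marks as in the plot of translocon signals. The groups overlap for XBP1, ATF6, PDIA3, PDIA4 and PDIA6, and the P4HB arrays with CEE+MPA lie within 6410 to 6790 while those with tibolone spread over 3640 to 6520.

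Genes that act beside this machinery were taken from lists of other pathway members. Of 23 tested ER chaperones and unfolded protein response genes, 2 fell in tibolone against CEE+MPA and 0 rose (8.70%, near the 7.35% of all tested genes). ATF4, the transcription factor translated when ER or nutrient stress slows protein synthesis, had 7340, 5610, 5470 and 6790 with tibolone, 9890, 10700, 10300 and 9900 with CEE+MPA, 8390, 7590, 8300 and 7780 with CEE and 6980, 6150, 6750 and 7350 in controls. CEE+MPA arrays exceeded all others, with a log2 fold change of -0.70 ± 0.12 for tibolone against CEE+MPA (adjusted p = 0.00793) and 0.58 ± 0.12 for CEE+MPA against control (adjusted p = 0.0140). MBTPS2, a Golgi protease that cleaves ATF6, fell by 0.57 on the log2 scale with tibolone relative to CEE+MPA (SE 0.16, adjusted p = 0.0459), although tibolone replicate 4 (364) overlapped CEE+MPA (361 to 438). ATF4 was the only gene of this list called in CEE+MPA against control (4.35%, against 7.69% of all tested genes). In the other 4 comparisons limma called 0 of the 23, and 0% to 0.0574% of all genes. At unadjusted p under 0.05 there were 2 in CEE against control (14.2% of all genes) and 0 in tibolone against control (4.83%). There were 3 in CEE+MPA against CEE (7.58%) and 5 in tibolone against CEE (13.0%). In CEE+MPA against control 6 of the 23 had an unadjusted p under 0.05, against 28.3% of all genes.

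Among 8 tested oligosaccharyltransferase genes, whose products attach the ALG-built sugar to the chain, 1 was called in tibolone against CEE+MPA (12.5%, against 7.35% of all tested genes). It was MAGT1, which rose, with 198, 247, 233 and 246 against 141, 179, 127 and 177 (0.53 ± 0.13, adjusted p = 0.0294). OSTC, another subunit, gave -0.71 ± 0.21 there (adjusted p = 0.0508). In the other 5 comparisons limma called 0 of the 8, with 1 or 2 at unadjusted p under 0.05. It called 7.69% of all tested genes in CEE+MPA against control and 0% to 0.0574% in the rest. Of 23 tested genes for other steps of ER to Golgi transport, such as cargo lectins, tethers and SNAREs, limma called 0 in each of the 6 comparisons, and 1 to 5 had an unadjusted p under 0.05. Over all genes the unadjusted share was 4.83% to 28.3% in the 6 comparisons. Their median for tibolone against CEE+MPA was -0.15, with 18 of 23 below 0 (15 of 23 with quantile normalization).

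Of 71 tested cell type markers 9 were called in CEE+MPA against control (12.7%, against 7.69% of all tested genes). There 2 luminal markers were higher, and 3 fibroblast and matrix, 2 adipocyte, 1 endothelial and 1 myeloid marker were lower. In tibolone against CEE+MPA 6 of the 71 were called (8.45%, near the 7.35% of all tested genes). All 7 tested endothelial markers had a log2 fold change above 0 (median 0.39, 1 called), as did 8 of 10 fibroblast and matrix markers (median 0.25, 2 called), 7 of 8 adipocyte markers (0.70, 2 called), 8 of 9 myeloid markers (0.52, 0 called) and all 11 skeletal muscle markers (0.72, 0 called), or 10 of 11 with quantile normalization or median centring. All 5 milk protein and milk fat genes were below 0 (-0.45, 0 called), or 4 of 5 with quantile normalization. Of 7 B and plasma cell markers 2 were above and 5 below 0 (-0.15, 0 called), and luminal markers were divided, 7 above and 7 below 0 (0.05, 1 called). Sums of the fibroblast and matrix markers spanned 47400 to 53600 with tibolone, 34400 to 53400 with CEE+MPA, 35500 to 51400 with CEE and 53600 to 68200 in controls. Sums of the endothelial markers spanned 6040 to 9280, 4670 to 5500, 5490 to 6560 and 6330 to 8930 in that order of groups, and those of the milk genes 25600 to 82000, 48200 to 79800, 35200 to 59500 and 49900 to 59000. Sums of the adipocyte markers spanned 14300 to 41500, 18200 to 33300, 15600 to 29500 and 22300 to 38200, and those of the myeloid markers 9110 to 14600, 12400 to 14900, 7270 to 14800 and 13200 to 16900. The summed myeloid signal thus reached no higher with tibolone than with CEE+MPA, although 8 of the 9 single markers were above 0; the exception, CD14, was bright and averaged 3690 ± 1740 with tibolone and 7980 ± 1160 with CEE+MPA (SD, n = 4 each). The part of these cell types in the differences of SSR2, SSR3, ALG5 and PDIA5 was not tested, except for skeletal muscle and luminal epithelium. With the luminal mean as a covariate 5 of the 52 genes were called, these 4 and SEC61B, beside 7.16% of all tested genes. The fits that take up skeletal muscle are given above.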

How the data were processed

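Total RNA of 16 mammary samples was hybridized as 1 array per animal. The deposited values were linear intensity per probe set, scaled by the authors to the same trimmed mean (2% trimmed) on every array, as the file shows. The tools GCOS and Affymetrix Expression Console are named in the submitters' processing notes, and the summarization algorithm is not given in the sources used here. From the 52865 probe sets 99 controls were left out, and 28704 with a signal above 60.2, the table's median, on at least 4 arrays were tested. Symbols came from the platform annotation (25330 probe sets with 1 or several, 361 with several and not named, 27535 with none), and all 55 genes were found in the RefSeq table of the cynomolgus macaque.

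The log2(signal + 16) values were fitted in R 4.3.3 with limma 3.58.1 (lmFit, eBayes), with 4 group means and Benjamini-Hochberg adjustment over all tested probe sets within each of 6 comparisons at 0.05. Each ± beside a log2 fold change is a standard error. A gene was represented by its tested probe set of highest mean, which leaves 10452 genes. Named were the called genes, the 3 of smallest p per direction where fewer than 3 passed, and a panel of pathway genes. The genes and lists were chosen with earlier results of these data known. Genes named for their spread, their overlap or their other probe sets were chosen after their values were seen.

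Alternatives covered normalization, filters, offsets (1, 64), array weights, probe set rules, the spike-in sets, muscle, luminal and GAPDH 3′/5′ covariates, and leaving out each array. The number of arrays limits the precision. Replicates were separate animals numbered in accession order, and the script was tested on simulated data. Figures were drawn with Python 3.11.15 and matplotlib 3.10.9.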

Additional observations from a re-analysis of the deposited data

Results flagged for a closer look

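In 5 of 128 gene and group checks over 32 named genes, 1 array lay far from the other 3 of its group by Dixon's ratio, which by chance alone marks about 1 in 20 groups. ALG2 read 1180 on CEE+MPA replicate 1, with the others at 1370 to 1410. ALG5 read 609 on tibolone replicate 3, with the others at 781 to 805. SEC61B read 5560 on CEE+MPA replicate 1, with the others at 4740 to 4870. SEC24D read 335 on CEE+MPA replicate 3, with the others at 424 to 436. SEC11C read 1290 on CEE replicate 2, with the others at 1050 to 1090.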

How the results depend on the processing

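In tibolone against CEE+MPA the 4 called genes became 0 with quantile normalization, with no filter, with only the 2 groups compared, with the 2 spike-in sets blocked, with a skeletal muscle covariate and without the arrays of high skeletal muscle signal, and 1 (SSR2) within the high spike-in set. Of all tested genes 0% to 5.17% were called in these fits with 0 and 2.27% within the high set, against 7.35% in the settings reported. With the muscle covariate the 4 log2 fold changes hardly moved (SSR2 -0.80, SSR3 -0.67, ALG5 -0.63, PDIA5 0.69), while without the high muscle arrays SSR3 (-0.45) and PDIA5 (0.47) were over 1.5 times smaller. Leaving out 1 array gave 0 (without CEE+MPA replicate 1, 2 or 3 or tibolone replicate 2 or 3) to 8 (without tibolone replicate 4). It gave 1 without CEE+MPA replicate 4 or CEE replicate 1, 2 without control replicate 1 (SSR2, SSR3), and 2 others, SEC16B and SEC61B, without tibolone replicate 1. Of all tested genes 0.794% to 3.43% were called in the leave-out fits with 0, and 13.6% in the fit with 8. Some of these fits used fewer arrays or more probe sets, and the cause was not tested. Of 31 alternatives, SSR2 passed in 18 (log2 fold change -0.90 to -0.54), SSR3 in 16 (-0.80 to -0.45), PDIA5 in 13 (0.47 to 0.86) and ALG5 in 10 (-0.72 to -0.44), and their highest adjusted p-values were 0.439, 0.549, 0.569 and 0.539. In CEE+MPA against control the 0 called genes became 5 with array weights (ALG2, COPZ2, SEC61B, SPCS1, SSR3), 3 with the stricter filter, with an offset of 64, with the mean of a gene's probe sets or with the GAPDH covariate, 2 with median centring, with the spike-in sets blocked or within the high set, and 1 with the luminal covariate. Of all tested genes 15.6% were called in the fit with 5, 9.26% to 14.2% in those with 3, 5.72% to 9.99% in those with 2 and 7.41% in that with 1. Leaving out 1 array gave 0 to 2 there, with 2 without control replicate 3, CEE+MPA replicate 1 or tibolone replicate 3 (beside 4.29% to 9.71% of all genes). The other 4 comparisons had 0 called genes in all alternatives run, where 0% to 0.966% of all tested genes were called. No called value changed sign. Of 143 values of single named genes, 55 had another sign under at least 1 alternative, 0 of them called in the settings reported, the largest being SEC11C in tibolone against CEE+MPA (-0.37, range -0.75 to 0.38). Of the values of single named genes, 67 lost and 44 gained a call, 107 moved and 4278 stayed. No paired analysis was possible because no macaque was sampled in more than 1 group and replicate numbers follow accession order. Faint genes such as COPG2 and TMED6 are limited by signal near background.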
